A study of Mus musculus with 7 samples.

Results

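The imprinted genes of mouse chromosomes 2, 15 and 18 were followed in chromatin-associated RNA sequencing (ChrRNA-seq) of embryonic stem cells that carry 1 set of chromosomes from each of 2 mouse subspecies. The members were chosen by name, as known imprinted genes of these chromosomes: Impact on chromosome 18, H13, Blcap, Nnat, Gnas and Nespas on chromosome 2, and Trappc9, Peg13 and Kcnk9 on chromosome 15. All 9 had a row among the 22556 genes of the count tables. The cells were undifferentiated female mouse embryonic stem cells (mESCs) from a cross of Mus musculus domesticus (Dom, strain 129S) with Mus musculus castaneus (Cast), in which doxycycline at 1 µg/mL had driven Xist, the RNA that silences an X chromosome, for 10 days. In iXist-ChrX-Dom (n = 4 libraries) the TetOn promoter had replaced the endogenous Xist promoter on the Dom X chromosome. In iXist-ChrX-Cast (n = 3) the same replacement had been made on the Cast X chromosome. In the study's methods each line is a single clone. The titles give all 7 libraries 10 days, but the sample description of iXist-ChrX-Dom replicates 3 and 4 says day 1, so values from replicates 1 and 2 only are given where they change a result. The cells were kept in serum with LIF, and inactivated fibroblast feeders had been depleted by pre-plating. No library without induction was analysed here, so no value is a response to Xist. Which parent gave the Cast chromosomes was not given in the sources used here, so an allele is named by its strain and not as maternal or paternal.

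An imprinted gene is transcribed from the maternal or the paternal copy according to a DNA methylation mark that was set in the egg or the sperm. The mark at a control region is read by nearby promoters, often through a non-coding RNA, and many of these genes are imprinted in some tissues and biallelic in others. In cultured embryonic stem cells the marks of some loci are known to be unstable. In a hybrid cell the 2 alleles can be told apart by single-base differences between the strains. A gene read from the same 1 parental copy in all cells has a Cast share near 0 or near 100%. A gene read from both has a share near 50%. Coordinates are those of mm10 as the count tables give them, and the 9 rows fall into 5 places in the genome. Impact, which encodes an inhibitor of the GCN2 stress kinase, spans chr18:12972251-12992948.

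H13, the gene of signal peptide peptidase, spans chr2:152669460-152708668 and holds the imprinted retrogene Mcts2 in an intron. Nnat (chr2:157560077-157562525, + strand), the gene of the small membrane protein neuronatin, lies wholly within Blcap (chr2:157556361-157566361, - strand), a gene named for its reduced expression in bladder cancer. Gnas (chr2:174284319-174346742, + strand) encodes Gsα, the G protein subunit that stimulates adenylyl cyclase, and has several alternative promoters that its single row pools. Its antisense RNA Nespas (chr2:174281236-174295436, - strand) covers 17.8% of the Gnas row. Trappc9 (chr15:72589619-73061204, - strand), a subunit of the TRAPPII vesicle tethering complex, holds the non-coding RNA Peg13 (chr15:72805599-72810324, - strand) and lies beside Kcnk9 (chr15:72512118-72546279, - strand), a potassium channel gene.

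The bases before the start of transcription are shown for the 4 members that had an entry in the RefSeq promoter table (GRCm38.p6), because 2 of the 4 starts lie inside the row of an overlapping gene on the opposite strand and CpGs at such starts can carry the methylation mark. Each run is the 250 bases before the start, written 5′ to 3′ on the strand of the gene, with every CpG, the site of the methylation mark, in capitals.
H13 (chr2:152669211-152669460, + strand): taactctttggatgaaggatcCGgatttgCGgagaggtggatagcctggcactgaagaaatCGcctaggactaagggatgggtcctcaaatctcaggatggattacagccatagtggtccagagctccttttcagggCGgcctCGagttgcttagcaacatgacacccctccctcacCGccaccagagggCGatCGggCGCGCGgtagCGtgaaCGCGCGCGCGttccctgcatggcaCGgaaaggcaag
Nnat (chr2:157559828-157560077, + strand): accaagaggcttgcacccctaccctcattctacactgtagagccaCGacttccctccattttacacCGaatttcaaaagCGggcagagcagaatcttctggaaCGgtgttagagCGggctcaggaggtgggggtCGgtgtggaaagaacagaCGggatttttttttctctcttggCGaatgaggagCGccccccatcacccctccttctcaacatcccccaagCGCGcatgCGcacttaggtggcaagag
Blcap (chr2:157566362-157566611, - strand): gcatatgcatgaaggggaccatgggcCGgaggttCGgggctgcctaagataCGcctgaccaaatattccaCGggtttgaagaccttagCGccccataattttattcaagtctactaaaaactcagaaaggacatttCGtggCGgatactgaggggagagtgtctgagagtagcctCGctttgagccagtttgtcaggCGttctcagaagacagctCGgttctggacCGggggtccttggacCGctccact
Gnas (chr2:174284070-174284319, + strand): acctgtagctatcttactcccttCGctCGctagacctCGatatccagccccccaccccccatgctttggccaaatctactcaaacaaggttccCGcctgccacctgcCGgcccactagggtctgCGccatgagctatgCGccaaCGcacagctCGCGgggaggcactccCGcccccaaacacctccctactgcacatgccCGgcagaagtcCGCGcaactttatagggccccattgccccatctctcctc
The Nnat window lies inside the Blcap row, and the Gnas window, which belongs to the promoter farthest upstream, lies inside the Nespas row. The windows held 18 CpGs in H13, 12 in Nnat, 12 in Blcap and 14 in Gnas, against a median of 6 over 32851 promoter windows of the same length. At least as many were in 21.7% of all windows for H13, 33.5% for Nnat and Blcap and 29.4% for Gnas. Windows of other Gnas starts, not shown, held 21, 22 and 29. The motif TGCCGC, which the imprint-binding protein ZFP57 recognises when methylated, was searched on both strands. It was in none of the 4 windows and in 8.68% of all windows. These letters were searched for in these windows only, and the control regions themselves were not searched.

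The libraries held 14877384 to 24309806 counted fragments, of which 44.2 to 46.4% could be assigned to an allele. The 10 pluripotent cell markers were all detected (summed level 1388 to 1811 CPM, the count scaled to a fixed library total). The neural markers summed to 73.5 to 124 CPM with Sox1 at 0 in every library, and the feeder fibroblast markers to 56.9 to 76.0 CPM. Xist, read from the engineered X chromosome, had a Cast share of 0.0949% ± 0.0222 (SD, n = 4) in the iXist-ChrX-Dom libraries, while the iXist-ChrX-Cast libraries had 94.5% ± 0.421 (n = 3), as the labels of the lines require. Nothing in the labels says that the replicates were separate cultures, so p-values measure the spread between these libraries.

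Of the 9 members, 7 gave counts in every library and 2 did not. Peg13 was listed at 0 in all 7 libraries. Its whole row lies within Trappc9 on the same strand, and fragments that match 2 genes were left uncounted, so this 0 is no measure of Peg13. Over the whole annotation, 397 genes lie wholly within another gene on the same strand, and 391 of them (98.5%) were at 0 in every library, against 7.56% of the other genes. Mcts2 inside H13 was among those at 0. Kcnk9, whose row overlaps no other gene, had 0, 1, 1 and 0 counts in replicates 1 to 4 of iXist-ChrX-Dom, with 0, 3 and 0 for iXist-ChrX-Cast. A count of 0 in a library allows up to 3 counts, or 0.122 to 0.211 CPM, so Kcnk9 was at or below what this depth can detect.

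Levels were compared per length, as CPM per kb of the gene body, since ChrRNA-seq counts introns as well as exons. Impact was the highest, at 14.5 ± 1.87 CPM per kb (SD, n = 7), followed by Nespas at 9.52 ± 0.901. Blcap at 2.58 ± 0.213 and H13 at 2.08 ± 0.105 formed the middle of the order. Gnas followed at 0.735 ± 0.121, Nnat at 0.455 ± 0.222 and Trappc9 at 0.262 ± 0.0601. The ranges over the 7 libraries did not overlap between Impact and Nespas, Nespas and Blcap, or H13 and Gnas, and those of Blcap (2.27 to 2.93) and H13 (1.88 to 2.20) were separated by little. Nnat, at 0.218 to 0.823 CPM per kb, overlapped both Gnas (0.566 to 0.893) and Trappc9 (0.186 to 0.369), so its place in the order is not fixed. The antisense RNA Nespas was thus the higher of the pair at the Gnas locus in every library on this scale, while the Gnas row is long and pools transcripts of different starts. In bulk RNA a lower level per cell and fewer expressing cells cannot be told apart.

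**Figure D1:**
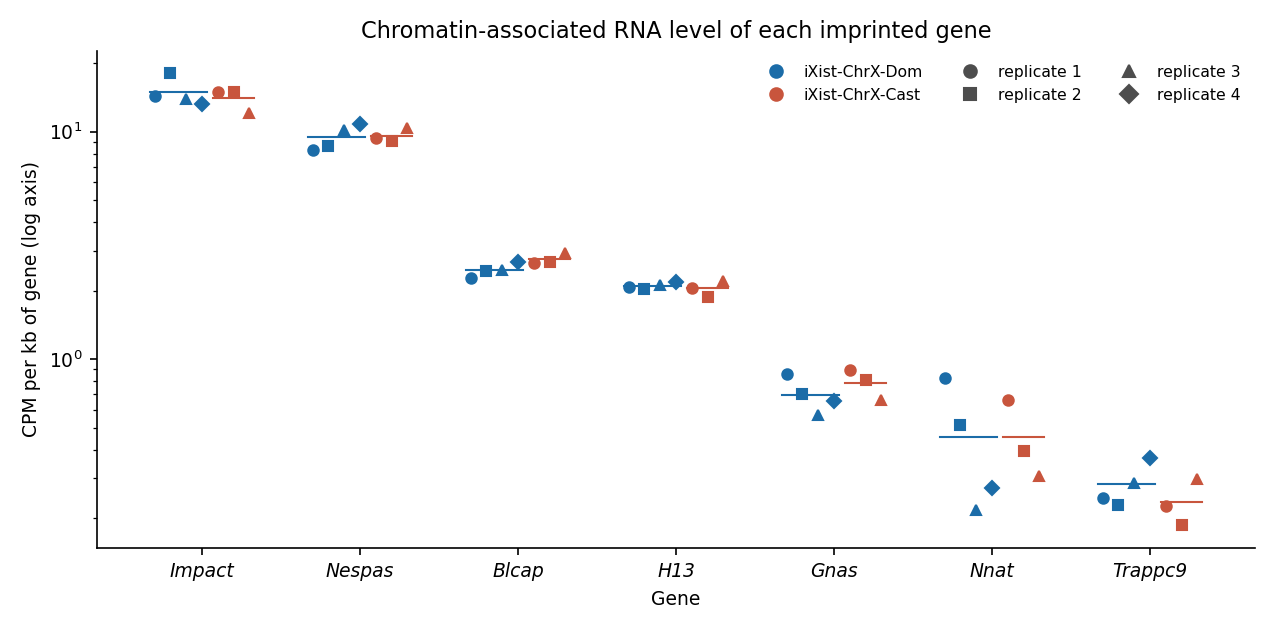
The level of each of the 7 countable genes is plotted in CPM per kb of gene on a log axis, with 1 point per library, colours for the 2 lines, marker shapes for replicates and horizontal bars for the mean of each line. Impact sits highest (mean 14.5) and Trappc9 lowest (0.186 to 0.369), and in each gene the points of the lines overlap.

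The allele shares show how the RNA of each gene was divided between the alleles over all cells of a library. In bulk RNA, cells that read both copies and a mixture of cells that each read 1 copy can give the same share. For 5 members (Impact, H13, Gnas, Nespas and Trappc9) every library held at least 94 allelic fragments, and in all 35 values the less abundant allele held between 43.2 and 49.8% of them. None of these 5 genes was near a share of 0 or 100% in any library. Blcap had too few allelic fragments for a firm share, and Nnat, Kcnk9 and Peg13 had next to none.

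Impact had a Cast share of 55.6, 54.0, 54.0 and 54.0% in replicates 1 to 4 of iXist-ChrX-Dom, and the 3 replicates of iXist-ChrX-Cast gave 53.5, 54.9 and 53.5%. It rested on 1988 to 4582 allelic fragments per library, the most of any member. Both alleles were present in each library and the Cast allele was the higher in all 7. The lowest bound of any 95% Wilson interval, which covers counting error only, was 51.3%.

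Trappc9 had a Cast share of 44.5, 45.9, 45.6 and 44.5% in iXist-ChrX-Dom and of 43.9, 44.4 and 45.3% in iXist-ChrX-Cast, on 958 to 2137 allelic fragments. Here the Dom allele was the higher in all 7 libraries. The highest Wilson bound was 48.3%.

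At the Gnas locus, Nespas had a Cast share of 47.7, 46.0, 47.7 and 47.9% in iXist-ChrX-Dom and of 49.4, 46.0 and 48.1% in iXist-ChrX-Cast, on 591 to 929 allelic fragments. The values lay below 50% in all 7 libraries. Nespas is known from mouse tissues as a transcript of the paternal copy. Gnas had a Cast share of 47.4, 51.8, 45.7 and 53.7% in iXist-ChrX-Dom and of 47.4, 43.2 and 50.4% in iXist-ChrX-Cast, on 94 to 194 allelic fragments. These fell on both sides of 50%, and the Wilson interval of every library held 50%. Since the Gnas row pools the maternal, paternal and biallelic transcripts known at this locus, its share does not separate them.

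H13 had a Cast share of 48.6, 47.6, 51.0 and 49.8% in iXist-ChrX-Dom and of 50.8, 47.5 and 51.2% in iXist-ChrX-Cast, on 666 to 1079 allelic fragments. The values again fell on both sides of 50%. H13 is known to make longer and shorter RNAs from different parental copies, and its row counts both.

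Blcap had a Cast share of 22.2, 40.5, 38.9 and 21.4% in iXist-ChrX-Dom and of 50.0, 29.6 and 14.8% in iXist-ChrX-Cast. Each value rested on only 14 to 42 allelic fragments, 3.72 to 7.02% of the Blcap counts, and its Wilson intervals ran from 5.92 to 73.2%. Pooled over the 7 libraries, 55 of 183 allelic Blcap fragments were Cast, a share of 30.1% (Wilson 95% interval 23.9 to 37.1%). Nnat had 5 allelic fragments in all libraries together, 1 of them Cast, so no statement on its alleles was possible at this depth. Kcnk9 had 4.

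**Figure D2:**
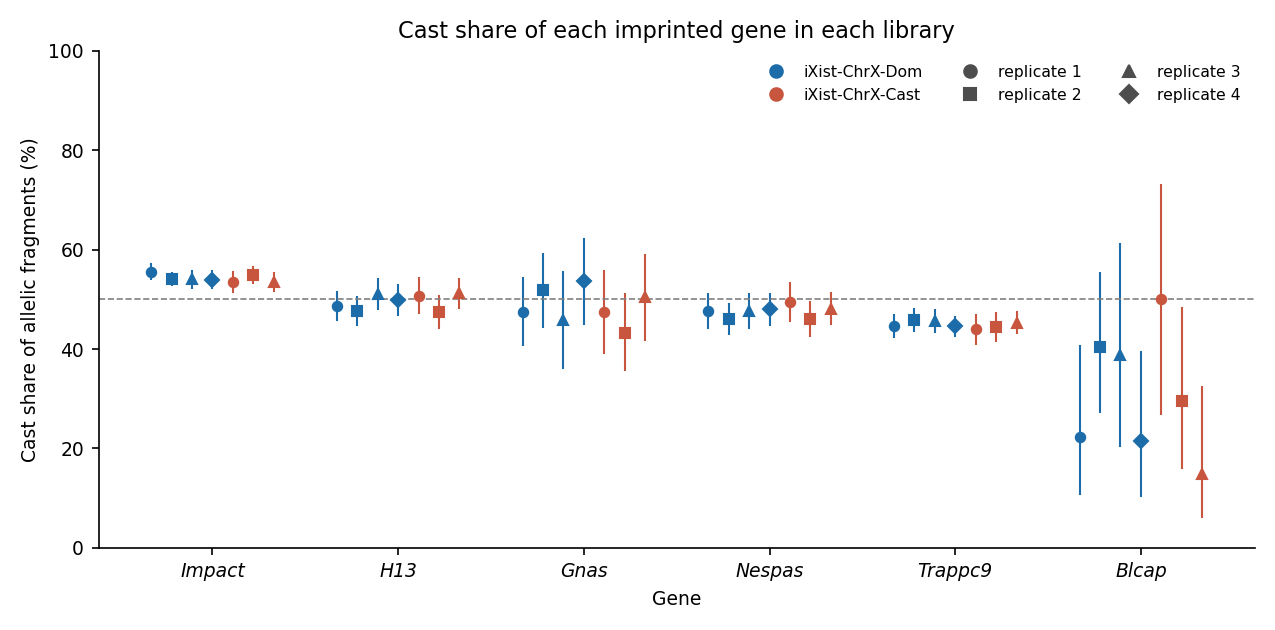
The Cast share of allelic fragments in percent is plotted for 6 genes, with 1 point per library, colours for the lines, marker shapes for replicates, bars for the 95% Wilson interval and a dashed line at 50%. The 5 genes on the left lie between 43.2 and 55.6% in every library, with Impact above and Trappc9 below the line, and Blcap is scattered with wide intervals.

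The size of these shares was tested with edgeR on the 14 allelic columns, with each library as a block and each allele scaled on its own. The median autosomal gene had a Cast share of 47.1 to 48.1%, and this scaling sets that general excess of Dom fragments to 0. Of the 6 members tested, 4 differed between the alleles, when 64% of the 13031 genes tested did so. A count of 4 of 6 is near that background. Impact was higher on the Cast allele (log2 difference 0.38, SE 0.031, edgeR adjusted p = 2.8e-10) and Trappc9 lower (log2 difference -0.16, SE 0.035, edgeR adjusted p = 0.00041). Blcap was lower on the Cast allele, at a log2 difference of -1.10 on few fragments (SE 0.27, edgeR adjusted p = 0.0012). H13 was slightly higher on the Cast allele (log2 fold change 0.11, SE 0.044, edgeR adjusted p = 0.033). Nespas (-0.0040, 95% interval -0.098 to 0.090) and Gnas (0.040, 95% interval -0.16 to 0.24) did not pass the test on the log2 scale.

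Over all genes tested, 44.8% had a larger difference between alleles than Impact and 72.4% a larger one than Trappc9. With 1 library size for both alleles, which leaves the general Dom excess in place, the median of all genes moved from 0.0089 to -0.13 and the Cast-higher share of called genes from 51.2 to 35.9%. Impact (0.24) and Trappc9 (-0.30) kept their directions and calls under that scaling. H13 turned to -0.027 (edgeR adjusted p = 0.61) and Gnas to -0.099 (edgeR adjusted p = 0.38), and Nespas passed the test at -0.14 (edgeR adjusted p = 0.0092). The direction of H13 and Gnas and the call of Nespas therefore depended on the scaling. H13 also lost its call without iXist-ChrX-Dom replicate 3 (edgeR adjusted p = 0.061) or 4 (0.065) and without iXist-ChrX-Cast replicate 1 (0.13) or 3 (0.13). In replicates 1 and 2 only, Impact (0.42) and Trappc9 (-0.15) were still called, while Blcap was at -0.73 (edgeR adjusted p = 0.062) and H13 at 0.076 (edgeR adjusted p = 0.24).

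Markers of the feeder fibroblasts leaned to the Dom allele to differing degrees. Fbn1, at 30.8 to 39.5 CPM, had a Cast share of 36.3 to 43.3%. The collagen gene Col1a2, which fibroblasts make in abundance, was at 9.43 to 15.6 CPM with a Cast share of 5.00 to 19.5%. Of the 6 feeder markers tested between alleles 5 were lower on the Cast allele, when 64% of all genes differed in either direction. Their part in the member shares was not tested.

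Other imprinted genes show what the assay gives when a gene is read mainly from 1 copy in these cells. Of 41 imprinted genes listed from other regions, 23 had at least 20 allelic fragments in every library. Snrpn, a paternally expressed splicing factor gene, had a Cast share of 6.43 to 13.2%. The non-coding RNAs Meg3, Rian and Mirg of the Dlk1-Dio3 region had 83.2 to 89.3%, 81.4 to 89.2% and 83.4 to 90.3%. Most others lay nearer the middle: 14 of the 23 had a mean share of 40 to 60%, among them Peg10 (59.0%), Mest (55.1%), H19 (44.4%) and Airn (52.1%). The 5 well-covered members all lay in that range, as did 73.5% of 10786 autosomal genes. No test of the members against these genes was made, since the members were chosen with earlier results known.

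Genes beside the members had shares like those of the chromosomes they lie on. Of 126 genes within 1 Mb, 65 had at least 20 allelic fragments in every library, their median share was 48.0%, and 56 of the 65 lay between 40 and 60%. Impact (54.2% ± 0.768, SD, n = 7) stood above the nearest covered gene on each side. These were the lipid transfer gene Osbpl1a (48.5% ± 1.06) and the transcription factor gene Zfp521 (46.3% ± 4.36). Ttc39c, which lies closer to Impact than Zfp521 does, was at 54.2% ± 4.78, and Lama3 was at 59.3% ± 3.12. The 8 covered genes within 1 Mb of Impact ran from 40.7 to 63.8%, with a median of 49.5%. Impact thus lay within the range of its locus. Gnas (48.5% ± 3.64) and Nespas (47.5% ± 1.21) lay between Npepl1 (44.0% ± 3.46) and Nelfcd (45.4% ± 3.01), both lower in the mean. H13 (49.5% ± 1.59) was close to the survival gene Bcl2l1 (49.1% ± 1.75) on 1 side, while Zcchc3 on the other was mostly Dom (24.8% ± 5.38). Trappc9 (44.9% ± 0.710) was flanked by Chrac1 (51.2% ± 8.07) and by the collagen gene Col22a1 at 17.9% ± 5.06. The 8 covered genes within 1 Mb of Trappc9 ran from 17.9 to 95.7%, with a median of 44.9%, close to its own share. Blcap (31.1% ± 12.6) was below both Src (48.6% ± 6.73) and Tti1 (52.9% ± 1.99). The medians of the iXist-ChrX-Dom and iXist-ChrX-Cast lines were 46.5 and 46.1% over chromosome 18, 47.2 and 46.9% over chromosome 2, and 47.1 and 47.2% over chromosome 15.

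**Figure D3:**
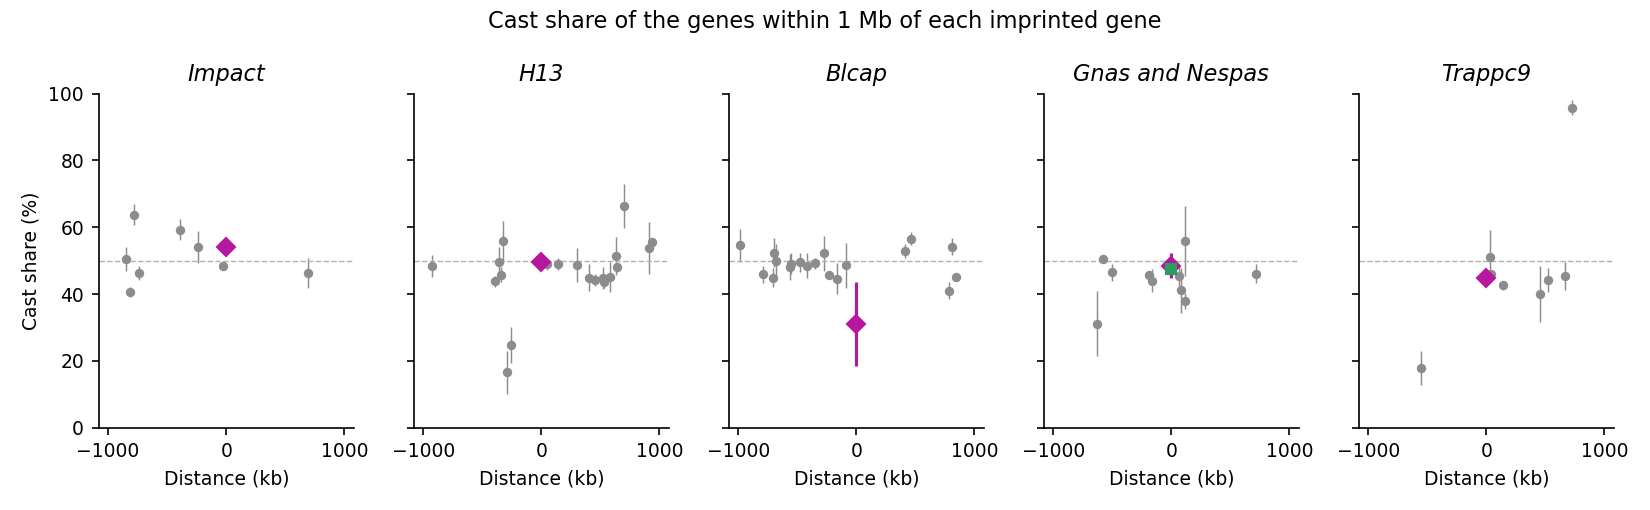
The mean Cast share in percent over 7 libraries, with SD bars, is plotted against the distance in kb for the genes within 1 Mb of a member that had at least 20 allelic fragments in every library (grey circles), in 5 panels. The members are drawn at distance 0 as purple diamonds, with Nespas as a green square, and apart from Blcap at 31.1% they lie within 10 percentage points of 50%, among the grey circles.

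The next comparison asked whether the members differed between the lines, whose engineered X chromosomes differ. None of the 7 members tested did in total counts, and none had CPM ranges that were separate between the lines. In the edgeR fit 2.92% of 15186 genes were called, and 16% of the 15186 had CPM ranges that did not overlap between the lines. The Trappc9 level was 115, 108, 135 and 174 CPM in iXist-ChrX-Dom and 107, 87.8 and 140 CPM in iXist-ChrX-Cast, with the widest log2 difference of the well-counted members at 0.25 (SE 0.19, 95% interval -0.17 to 0.68, edgeR adjusted p = 0.55). Its spread within a line exceeded the difference between the lines. Impact was at 296, 373, 287 and 273 CPM against 310, 310 and 249.3 CPM, a log2 difference of 0.086 (95% interval -0.21 to 0.38, edgeR adjusted p = 0.80).

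Gnas was at 53.7, 43.9, 35.3 and 40.7 CPM in iXist-ChrX-Dom and 55.7, 50.3 and 41.4 CPM in iXist-ChrX-Cast, a log2 difference of -0.18 (95% interval -0.52 to 0.17, edgeR adjusted p = 0.62). Nespas was at 118, 123, 144 and 153 CPM against 133, 129 and 147 CPM, a log2 difference of -0.019 (95% interval -0.27 to 0.24, edgeR adjusted p = 0.96). Blcap, at 22.7, 24.3, 24.5 and 26.6 CPM against 26.4, 26.7 and 29.3 CPM, came closest to separate ranges, since only iXist-ChrX-Dom replicate 4 reached the level of the other line (log2 difference -0.16, 95% interval -0.42 to 0.093, edgeR adjusted p = 0.52). H13 had the narrowest interval, -0.17 to 0.25 around 0.037. Nnat, on 10 to 46 counts, had the widest, -0.97 to 1.10 around 0.067, the loosest bound of the 7. These intervals bound the difference and do not show that the lines were alike.

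Within the replicate numbers that the lines share, the picture of no called member held. A fit with the replicate number as a block called 1794 genes instead of 443, and 0 members. Within replicates 1 and 2 the difference of mean log2 CPM between the lines was 0.20 for Trappc9 and 0.10 for Impact, and in the later replicates 0.13 and 0.17. For Nnat it was 0.35 and -0.34. Over the 15 fits of total counts the smallest adjusted p of any member was 0.16, for Trappc9.

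Each allele was also compared between the lines on its own. In Cast-allele counts 14.9% of 12149 genes were called and 0 of the 5 members tested, with log2 differences from -0.13 in Gnas to 0.23 in Trappc9. In Dom-allele counts 4.87% of 12569 genes were called and 0 of 6 members, from -0.28 in Gnas to 0.22 in Trappc9. For Trappc9 the allelic values, 0.23 and 0.22, were thus close to each other and to that of the total. The ratio of the alleles differed between the lines for 17.4% of 13031 genes and for 0 of 6 members. The interval of that difference was -0.11 to 0.15 for Impact, -0.11 to 0.18 for Trappc9, -0.22 to 0.15 for H13, -0.22 to 0.16 for Nespas, -0.24 to 0.57 for Gnas and -0.95 to 1.36 for Blcap, all on the log2 scale. Within each line Impact, Trappc9 and Blcap differed between the alleles, 3 of 6 members in iXist-ChrX-Dom, where 57.3% of genes did, and the same 3 in iXist-ChrX-Cast, where 52.2% did. In replicates 1 and 2 only, Impact alone was called within each line. Blcap also lost its call in iXist-ChrX-Dom without replicate 1 (edgeR adjusted p = 0.069) or 4 (0.079) and in iXist-ChrX-Cast without replicate 2 (0.081) or 3 (0.33).

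**Figure D4:**
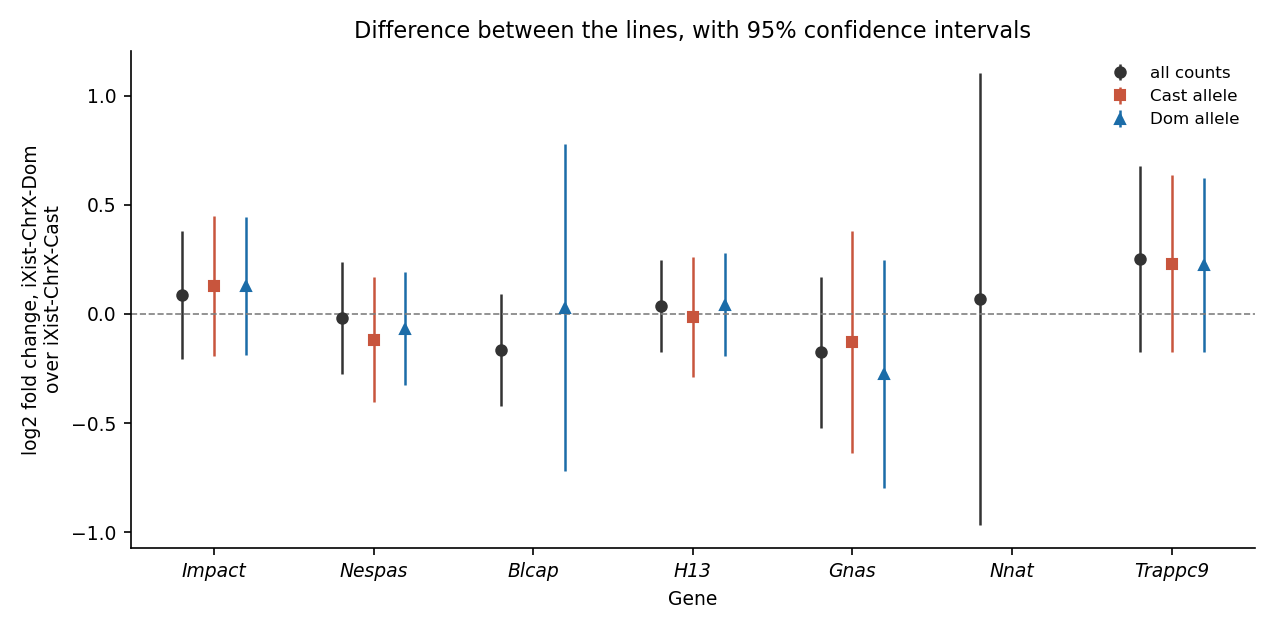
The log2 fold change of iXist-ChrX-Dom over iXist-ChrX-Cast is plotted for the 7 countable genes, in all counts (circles), Cast-allele counts (squares) and Dom-allele counts (triangles), with 95% confidence intervals. Every interval crosses 0, and that of Nnat (-0.97 to 1.10) is the widest.

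The libraries differed more by replicate number than by line. Replicates 1 and 2 of both lines and replicates 3 and 4 (for iXist-ChrX-Cast, replicate 3 alone) carry names of different form in the deposit, a split that includes the disagreement over day 1 and day 10. For the iXist-ChrX-Cast line the files of the first pair of replicates carry another clone name than that of replicate 3. The comparison of these sets, in an edgeR fit with the line, was added after the data were seen. It called 30.3% of 15186 genes and 5 of the 7 members. Of the members 3 were higher in replicates 1 and 2, as were 14% of all genes, and 2 were lower, as were 16.3%.

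Nnat was higher in replicates 1 and 2, at 2.02 and 1.26 CPM against 0.533 and 0.663 CPM in iXist-ChrX-Dom and at 1.62 and 0.968 against 0.751 CPM in iXist-ChrX-Cast (log2 difference 1.17, SE 0.32, edgeR adjusted p = 0.013). Within each line the sets did not overlap in Nnat, nor in any other countable member, the uncalled H13 and Blcap among them. The share of all genes for which this holds was not counted. Gnas was higher as well (log2 difference 0.36, SE 0.098, edgeR adjusted p = 0.012), and its difference was 0.36 in each line taken alone. Impact was higher by 0.28 (SE 0.091, edgeR adjusted p = 0.029), with iXist-ChrX-Dom replicate 2 the highest library. Trappc9 moved the other way, with a log2 difference of -0.49 (SE 0.099, edgeR adjusted p = 0.0018), from 97.4 to 140 CPM in the means of iXist-ChrX-Cast and from 111 to 154 CPM in those of iXist-ChrX-Dom. Nespas was also lower in replicates 1 and 2, by a log2 difference of -0.24 (SE 0.078, edgeR adjusted p = 0.028). Gnas and its antisense RNA thus moved in opposite directions between the sets. H13 (-0.099) and Blcap (-0.13) did not pass the test.

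Trappc9 kept its call without any single library and in iXist-ChrX-Dom alone (log2 difference -0.47, edgeR adjusted p = 0.016). The others did not: without 1 library the adjusted p reached 0.065 for Nnat, 0.064 for Gnas, 0.15 for Impact and 0.14 for Nespas. Markers of cell types were compared between the sets as well, where 30.3% of all genes differed. All 5 of 5 primitive endoderm markers tested differed, Dab2 being higher in replicates 1 and 2 and Gata4, Gata6, Sparc and Lama1 lower. The summed level of the 6 primitive endoderm markers was 243 to 350 CPM in replicates 1 and 2 and 347 to 416 CPM in the others, with none at 0. Of the 4 neural markers tested 3 differed, Pax6 (log2 difference 0.97) and Nes (0.67) being higher in replicates 1 and 2 and Tubb3 (-0.43) lower, with summed levels of 73.5 to 124 CPM against 84.5 to 90.5 CPM and Sox1 at 0. Of the 10 pluripotent markers 3 differed, Pou5f1 (-0.50), Zfp42 (-0.35) and Klf2 (-0.40), all lower in replicates 1 and 2, with summed levels of 1388 to 1718 CPM against 1705 to 1811 CPM and none at 0. Of the 8 feeder markers tested 2 differed, Col3a1 (0.67) being higher and Postn (-1.24) lower, with summed levels of 61.4 to 76.0 CPM against 56.9 to 65.7 CPM. The counts of pluripotent and feeder markers were thus near the share of all genes. The part of these markers in the member differences was not tested. The disagreement over the day is in iXist-ChrX-Dom only and the other clone name in iXist-ChrX-Cast only, so neither label follows the split in both lines. Within each line they cannot be told apart from whatever else differs between the sets, which the labels do not name.

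**Figure D5:**
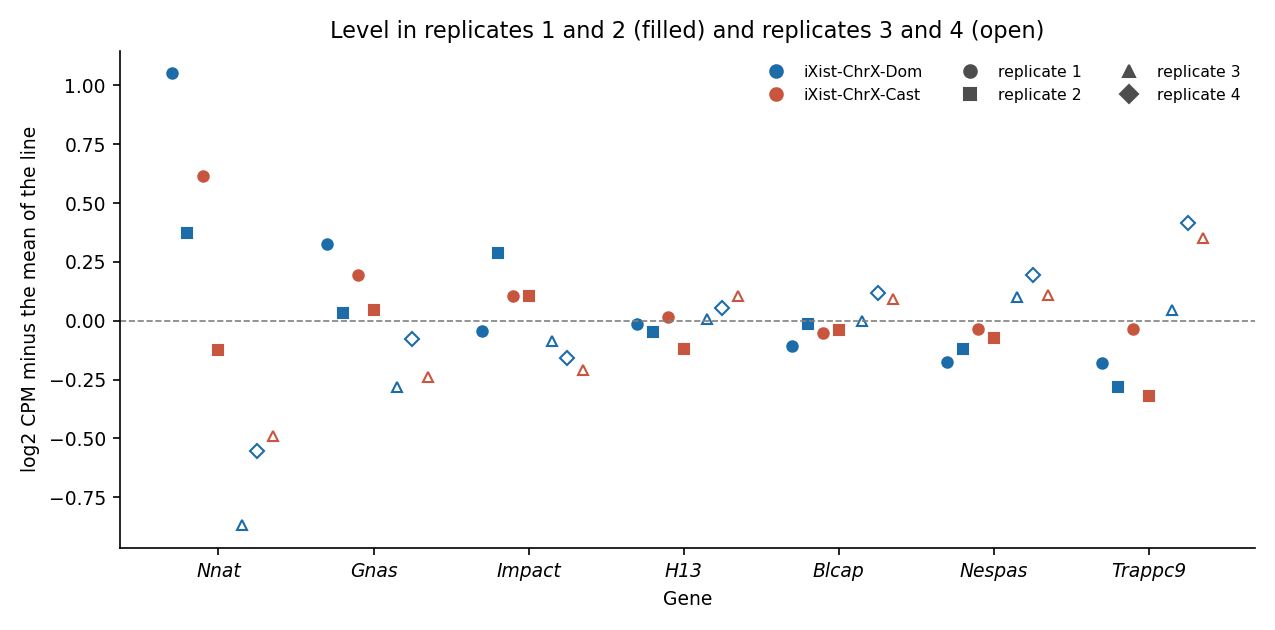
The log2 CPM of each of the 7 countable genes, minus the mean of its line, is plotted per library, filled for replicates 1 and 2 and open for replicates 3 and 4, with colours for the lines. Within each line, filled points lie above open ones in Nnat, Gnas and Impact and below them in Nespas, Trappc9, H13 and Blcap. H13 and Blcap vary by less.

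Transcripts of the genes that maintain imprints were counted in the same libraries. All 15 listed genes, among them Zfp57 and Trim28, which hold the methylation mark at control regions, and Dnmt1 and Uhrf1, which copy it at replication, passed the filter on low counts. None of the 15 differed between the lines in total counts (median log2 difference -0.010), where 2.92% of all genes did. None differed in the allele ratio, where 17.4% of all genes did. Between the alleles 10 of 15 differed, 6 higher on Cast and 4 on Dom, which is near the 64% of all genes. Of 35 other imprinted genes tested, none differed between the lines in total counts in the reported edgeR fit. With DESeq2 2 did, with the replicate block 4, with the sample set as a covariate 6, and in replicates 1 and 2 only 3 of 37. These alternative fits also called more of all genes than the reported one. In the allele ratio 3 of 25 differed, against 17.4% of all genes. These were Mest (log2 difference -0.46, edgeR adjusted p = 0.0028), Mirg (-0.31, edgeR adjusted p = 0.033) and Rian (-0.30, edgeR adjusted p = 0.048), each with a higher Cast share in iXist-ChrX-Cast. Only 1 of the 3 stayed called without iXist-ChrX-Dom replicate 1 or 2, without iXist-ChrX-Cast replicate 3 or with DESeq2, and none with limma.

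The partners of the member proteins were tested as a list of 33 genes, among them the GCN2 pathway of Impact, the adenylyl cyclases and kinase subunits downstream of Gsα, the TRAPP subunits around Trappc9 and the signal peptidase and related proteases of H13. In total counts 1 of the 33 differed between the lines, near the 2.92% of all genes. It was Atp2a2, the calcium pump that neuronatin binds, with a log2 difference of -0.56 (SE 0.086, edgeR adjusted p = 0.015). No partner was called without iXist-ChrX-Dom replicate 3, or without replicate 1 or 2 of iXist-ChrX-Cast, and 6 were with the replicate block or with the sample set as a covariate. In the allele ratio 9 of 32 partners differed, against 17.4% of all genes. Of the 9, 5 went in the direction of a higher Cast share in iXist-ChrX-Dom and 4 in the other. Gcn1l1, the activator of GCN2 that Impact competes for, was among the latter (-1.10, edgeR adjusted p = 6.5e-12). The causes of the differences in Atp2a2 and Gcn1l1 were not tested. Trappc2, an X-linked TRAPP subunit, had the largest value, 7.52 (edgeR adjusted p = 3.3e-12). Xist was induced on opposite X chromosomes in the lines, and in the paper iXist-ChrX-Dom is not informative by allele over the whole X. The value of this X-linked gene is therefore not comparable with those of the autosomal partners. Of 90 flanking genes tested, 3 differed between the lines in total counts, near the 2.92% of all genes. Among them were Snhg11 (log2 difference 0.66) and Col22a1 (0.78), higher in iXist-ChrX-Dom. The 3 calls fell to 0 when any library other than iXist-ChrX-Cast replicate 3 was left out. In the allele ratio 2 of 78 flanking genes differed, against 17.4% of all genes, namely Ppp4r1l-ps (1.28) and Slc52a3 (1.28). Only 1 of these was called with the replicate block, with DESeq2, without iXist-ChrX-Dom replicate 1, 3 or 4, or without replicate 1 or 3 of iXist-ChrX-Cast.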

How the data were processed

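Chromatin-associated RNA of 7 libraries was measured with a stranded total RNA kit. The authors removed ribosomal reads with Bowtie2 2.3.2, aligned the rest to mm10 with STAR 2.4.2a, split fragments by strain, and deposited raw fragment counts per gene (featureCounts 1.5.2, paired and stranded, over whole transcripts, fragments matching several genes left out) as totals and for each allele. Which counts file column is Cast was checked against the deposited allelic ratio tables, whose values are a fraction and were not used otherwise. Starts are printed as the files give them. For 10944 of 21258 genes they are 1 below a GENCODE M21 transcript start. Allelic counts depend on polymorphism density, since only fragments over a strain difference are allelic.

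The members and gene lists were chosen with earlier results of these data known, and named genes are the members, the nearest covered flanking genes and up to 5 called genes of each list. Samples were grouped by line from the labels. Tests used edgeR 4.0.16 (quasi-likelihood, TMM scaling, filterByExpr, Benjamini-Hochberg adjustment over all genes, calls at 0.05), in R 4.3.3, and were tested on simulated data. Alternatives used limma 3.58.1 on log2 ratios with an offset of 0.5 and DESeq2 1.42.0. Total depth was 14877384 to 24309806 fragments per library, and intervals on shares are 95% Wilson intervals that cover counting error only. Replicate pairs differed by a chi-square of 6.12 to 37.3 per gene, above sampling noise. Deviations of same-numbered libraries of the lines correlated at 0.329, 0.275 and 0.466 across genes, so the numbers, taken from the titles, were treated as pairing the libraries in an alternative fit. Differently numbered libraries also correlated (0.384 and 0.505), by set. Promoter sequence came from RefSeq. The result of 1 flanking gene is not reported here.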

Additional observations from a re-analysis of the deposited data

Results flagged for a closer look

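Within iXist-ChrX-Dom, the only line with enough libraries for this check, 1 library stood apart from the other 3 in 2 member values. The Cast share of Impact was 55.6% in replicate 1, and the gap to the nearest library was 0.963 of the whole range. The Cast share of Nespas was 46.0% in replicate 2, with a gap of 0.856 of the range. The critical value for 4 libraries is 0.829, and chance alone flags about 1 in 20 groups. Both values lay within the Wilson intervals of other libraries of the line.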

How the results depend on the processing

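The fragments that cover a strain difference limit Blcap, Nnat and Kcnk9, and the 3 or 4 libraries per line limit the differences between the lines. In total counts 0 members were called under all 15 fits, while the genes called numbered 443 in the reported fit, 1098 with DESeq2, 1794 with the replicate block, 2398 with the sample set as a covariate, 1685 in replicates 1 and 2 only, and 18 (without iXist-ChrX-Cast replicate 2) to 1206 (without iXist-ChrX-Cast replicate 3) when 1 library was left out. In Cast-allele counts the sample set gave 2804 genes against 1809, and in Dom-allele counts the replicate block gave 1085, the sample set 1485, replicates 1 and 2 only 1191 and leaving out 1 library 451 to 1019, against 612. The pairing by replicate number changed no member call. Between the alleles, replicates 1 and 2 only left 2 members called over both lines (against 4) and 1 in each line (against 3), and limma left 1 in iXist-ChrX-Dom. The causes of these shifts were not tested.

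Member values that changed sign (log2 scale) were not called where the sign changed, and in the reported fits only H13 between the alleles over both lines had been (edgeR). With 1 library left out, line differences in total counts ran from -0.373 to 0.406 in Nnat, -0.0853 to 0.039 in Nespas, -0.0202 to 0.14 in Impact and -0.0212 to 0.0925 in H13. Those of the Cast allele ran from -0.111 to 0.0666 in H13 and -0.261 to 0.0376 in Gnas, and those of the Dom allele from -0.00664 to 0.20 in Impact and -0.219 to 0.283 in Blcap. The difference between alleles ran from -0.033 to 0.0188 in Nespas and -0.00419 to 0.095 in Gnas over both lines, from -0.0403 to 0.00321 in Nespas in iXist-ChrX-Dom, and from -0.0398 to 0.0553 in Nespas and -0.125 to 0.0663 in Gnas in iXist-ChrX-Cast. The line difference of the allele ratio ran from -0.0134 to 0.0578 in Impact, -0.378 to 0.657 in Blcap, -0.0107 to 0.0367 in Trappc9 and -0.073 to 0.0136 in Nespas. In replicates 1 and 2 only, H13 was at 0.00805 in Cast-allele counts, and the allele ratio was at -0.00869 in Impact and -0.271 in Blcap. That ratio in Impact was -0.00949 with DESeq2 and -0.00613 with 20 or more allelic fragments required in every library. H13 was at 0.0119 in Cast-allele counts with total library sizes, and Blcap at -0.0557 in Dom-allele counts with the replicate block. Between alleles, Nespas was at 0.00149 with no filter and 0.0131 with limma over both lines, and at 0.00102 with limma in iXist-ChrX-Dom. With the same library size for both alleles, Gnas was at -0.099 and H13 at -0.0267 over both lines, Gnas at -0.0143 and H13 at -0.0437 in iXist-ChrX-Dom, and Nespas at -0.128 and H13 at -0.0098 in iXist-ChrX-Cast.

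Between the replicate sets, iXist-ChrX-Dom alone gave 2737 genes and 3 members called, and leaving out 1 library gave 2520 to 4503 genes (against 4606) and 1 to 5 members (against 5), with 1 left without iXist-ChrX-Dom replicate 3. Fewer libraries entered these fits. With the autosomal median set to 50%, the mean Cast shares of the Dom and the Cast line became 57.0 and 56.5% for Impact, 49.9 and 50.4% for Nespas, 51.9 and 52.3% for H13 and 47.7 and 47.0% for Trappc9, all higher by construction. With 1 library left out, the unscaled mean Cast share ran from 54.0 to 54.5% for Impact in iXist-ChrX-Dom. For Blcap in iXist-ChrX-Cast it ran from 22.2 to 39.8%.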
